A study of Mus musculus with 12 samples.

Results

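The genes described here are 41 interferon-stimulated genes with antiviral or interferon-related functions that lie outside the Gbp, Irg, Ifit, Ifi200, Oas and Slfn families. They were chosen by symbol, from a list, and all 41 had a row in both deposited tables, which hold 24465 different genes together. The libraries come from mouse bone marrow-derived macrophages, cells grown in culture from marrow progenitors. The control genotype is Lyz2cre, with the Cre recombinase driven from the lysozyme 2 gene, which is active in myeloid cells. The other genotype is Klf6fl/fl:Lyz2cre, in which both copies of Klf6 are floxed beside the same Cre, so that Cre is shared by all groups, and it is called Klf6-deleted below. Cells of each genotype were left without TNF (labelled Control) or received the inflammatory cytokine TNF at 10 ng/ml during 6 h, which makes 4 groups of 3 libraries. No strain, age or sex is given in the labels. They do not state either whether replicate libraries stem from different animals or cultures, and p-values therefore reflect the spread between libraries, which may be technical. Values are normalized read counts, that is read counts divided by 1 size factor per library.

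Libraries held 16925666 to 23386570 reads assigned to genes. Klf6 itself, which checks the labels, was at 10055, 9984 and 10314 in Lyz2cre and 7004, 7405 and 6894 in Klf6-deleted libraries without TNF (log2 change -0.51, SE 0.0359, adjusted p = 7.1e-10, limma) and at 7622, 7155 and 7564 against 4211, 4133 and 4139.9 with TNF (log2 change -0.84, SE 0.0417, adjusted p = 4.3e-11, limma). Which exons are floxed is not stated in the labels, so the reads that remain do not show how far the gene was deleted. All 8 macrophage markers were measured in both tables, with Adgre1, Csf1r, Cd68, Itgam and Mertk among them. Of the 8, 7 were lower and 1 higher in Klf6-deleted cells without TNF, and 5 lower and 3 higher with TNF (limma). The 8 include Lyz2, the gene from which Cre is driven, at 856 against 244 without TNF and 1656 against 931 with it (group means, Lyz2cre first). They also include Fcgr1, the 1 higher without TNF (5714 against 6609) and lower with it (7865 against 695), the directions of most members described below. Over all genes tested, 29.3% were called lower and 27.6% higher without TNF. With TNF 30.8% were called lower, and 3103 of 11717 higher. The summed share of the 8 markers in the counts was 1.14% in Lyz2cre and 0.684 to 0.721% in Klf6-deleted libraries without TNF. With TNF it was 0.936 to 0.952% and 0.805 to 0.814%. In such bulk libraries fewer cells of a type and less RNA per cell cannot be told apart.

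Interferon-stimulated genes are switched on when type I interferon binds its receptor and the kinases JAK1 and TYK2 activate transcription factors that bind an element called the ISRE near the start of each gene. Their products sense viral RNA, block viral entry, replication and release, or tag proteins with the ubiquitin-like protein ISG15. Macrophages given TNF make a small amount of interferon beta, which acts back on the same cells and raises such genes over several hours.

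Because the ISRE is the element these genes are known to share, the sequence around each gene's start was searched for its core, GAAA, any 2 bases and GAAA, on both strands. RefSeq promoters of build GRCm38.p6, 250 bases before to 50 bases after the start, were at hand for 32 of the 41 members, with 45 windows among them. The ISRE core was found in 11 of the 32, or 34.4%, against 3.99% of all 27025 genes in the promoter table. The capitals below mark the core, or cores where they overlap, printed 5′ to 3′ on the strand that reads GAAA, and the coordinates are those of the core. The search itself fixed GAAA on both sides of each core, so only the 2 free bases and the lower-case flanks can differ between genes.
Isg15 (chr4:156200875-156200896): gtagGAAAAGGAAACCGAAACAGAAAatag
Bst2 (chr8:71537587-71537602): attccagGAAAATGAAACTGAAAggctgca
Trim21 (chr7:102565454-102565469): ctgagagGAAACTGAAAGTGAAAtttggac
Ddx60 (chr8:61928034-61928043): gtgatgaatgGAAACCGAAActtaaagctt
Ddx60 (chr8:61928068-61928077): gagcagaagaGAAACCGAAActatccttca
Rsad2 (chr12:26456563-26456572): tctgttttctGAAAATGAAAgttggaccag
Eif2ak2 (chr17:78882545-78882554): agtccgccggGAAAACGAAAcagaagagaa
Ifih1 (chr2:62646214-62646223): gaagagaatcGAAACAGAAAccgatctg
Lgals9 (chr11:78984970-78984979): agtgtctagaGAAAAAGAAAgctgatgtca
Lgals9 (chr11:78984900-78984909): gctgagctagGAAACAGAAAccacagctat
Shisa5 (chr9:109054898-109054907): ctttcaaaGAAAAGGAAAtcgaatctta
Trim30a (chr7:104465220-104465229): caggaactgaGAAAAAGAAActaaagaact
Trim30d (chr7:104507881-104507890): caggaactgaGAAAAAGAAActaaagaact
Isg15 held 3 overlapping cores that begin 78 bases before the start, Bst2 and Trim21 held 2 overlapping cores each, and the printed stretches of Trim30a and Trim30d, neighbouring genes, were identical. A second window of Trim30a held 1 more core. The cores of Eif2ak2, Ifih1, Shisa5 and Trim21, and the second of Lgals9, lie within the 50 bases after the start.

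Other elements were counted in the same windows. GAS, the interferon gamma-activated site (TTCNNNGAA, the same on both strands), was found in 18.8% of members, 6 of 32, and 9.55% of all genes. The NF-kB site was found in 9.38% against 9.55%, the GC box (GGGCGG) in 37.5% against 38.2% and the CACCC box bound by Krüppel-like factors (CACCC) in 62.5% against 59.8%, all on both strands. The 250 bases before the start are shown for 4 members whose values span the range below, on the gene's strand with the ISRE core in capitals (for Rsad2 it reads on the other strand): Isg15 and Rsad2, among the most strongly changed with TNF, Ifi44, the member with the largest change without TNF, and Trim25, the member with the smallest change with TNF.
Isg15 (chr4:156200819-156201068, minus strand): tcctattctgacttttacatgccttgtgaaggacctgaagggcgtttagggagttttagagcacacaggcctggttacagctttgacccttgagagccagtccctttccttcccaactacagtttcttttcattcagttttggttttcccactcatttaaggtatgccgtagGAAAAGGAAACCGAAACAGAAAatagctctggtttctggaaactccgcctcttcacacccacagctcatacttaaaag
Rsad2 (chr12:26456453-26456702, minus strand): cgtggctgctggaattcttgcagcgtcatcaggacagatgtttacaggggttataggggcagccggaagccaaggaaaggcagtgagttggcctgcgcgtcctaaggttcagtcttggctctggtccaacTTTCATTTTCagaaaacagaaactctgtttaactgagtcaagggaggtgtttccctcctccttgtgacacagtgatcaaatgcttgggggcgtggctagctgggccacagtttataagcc
Ifi44 (chr3:151749911-151750160, minus strand): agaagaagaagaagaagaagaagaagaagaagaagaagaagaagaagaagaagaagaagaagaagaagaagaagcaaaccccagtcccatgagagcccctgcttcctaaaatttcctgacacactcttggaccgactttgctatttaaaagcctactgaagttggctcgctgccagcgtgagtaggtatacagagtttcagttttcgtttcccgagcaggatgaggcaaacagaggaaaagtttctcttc
Trim25 (chr11:88999153-88999402, plus strand): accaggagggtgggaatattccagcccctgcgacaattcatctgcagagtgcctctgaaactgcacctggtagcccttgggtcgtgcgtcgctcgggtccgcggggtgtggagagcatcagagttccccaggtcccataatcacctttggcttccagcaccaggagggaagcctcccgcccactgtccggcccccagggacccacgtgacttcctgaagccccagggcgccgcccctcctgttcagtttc
The ISRE core is not in these letters of Ifi44 or Trim25, and a match or its absence is a description of the window alone. Members with a core had a median log2 change with TNF of -2.45, from -4.01 in Rsad2 to -1.06 in Shisa5, and the 21 members without one a median of -2.38, from -4.34 in Cmpk2 to -0.94 in Trim25. Both ranges overlap over nearly their whole width.

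With TNF, every one of the 41 genes was lower in Klf6-deleted than in Lyz2cre macrophages. The median log2 change was -2.30, a 4.92-fold lower level, while the median over the 11717 genes tested was -0.01. All 41 passed the filter on low values in both conditions, and all 41 passed the test (limma, adjusted p below 0.05), where 30.8% of all genes tested were called lower, and none was higher (0 at an unadjusted p below 0.05, and 0 by edgeR and by DESeq2). The groups did not overlap in any of the 41, with Klf6-deleted libraries below, a separation seen in 33.3% of all genes. The difference was at least 2-fold in 40 members, at least 4-fold in 29, at least 8-fold in 8 and at least 16-fold in 4. Among all 11717 genes tested, 814, 277, 95 and 28 were called lower by at least these factors.

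Without TNF the same genes were changed far less, and mostly in the other direction. Of 41, 31 were higher in Klf6-deleted cells (limma, adjusted p below 0.05), where 27.6% of all genes were called higher, and 4 were lower, where 29.3% of all genes were called lower. The median log2 change was 0.25, against -0.01 over the 12715 genes tested. Every Klf6-deleted library lay above every Lyz2cre library for 33 members, a pattern held by 30.1% of all genes, and below for 4, a pattern held by 32.2% of all genes. In the same libraries all 16 tested of 18 stromal markers, such as the collagen genes Col1a1 and Col3a1, were higher as well, at a summed 0.0210 to 0.0254% of the counts in Lyz2cre and 0.395 to 0.418% in Klf6-deleted libraries, with none at 0 throughout a group, and their part in the members' rise was not tested. Klf6-deleted libraries had a smaller sum of normalized counts, so scaling to total reads moved the median of all genes up by 0.13 on the log2 scale without TNF and by 0.33 with TNF. Under that scaling 34 members were higher and 1 lower without TNF, where 5121 and 2408 of all 12715 genes tested were called so. All 41 were still lower with TNF, at a median of -1.97, where the median over all genes was 0.32. Of those 11717 genes, 1716 were called lower. The difference with TNF was then at least 2-fold in 38 members, at least 4-fold in 20, at least 8-fold in 7 and at least 16-fold in 1. Among all 11717 genes, 546, 196, 72 and 17 were then called lower by at least these factors.

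The 41 genes together took 0.418% ± 0.00875 of the reads in Lyz2cre and 0.525% ± 0.000777 in Klf6-deleted libraries without TNF (SD, n = 3). With TNF they took 2.42% ± 0.152 in Lyz2cre and 0.676% ± 0.0183 in Klf6-deleted libraries. These shares do not depend on the size factors, and the 3 Lyz2cre libraries with TNF, from 2.25 to 2.54%, lay above all 9 others.

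**Figure D1:**
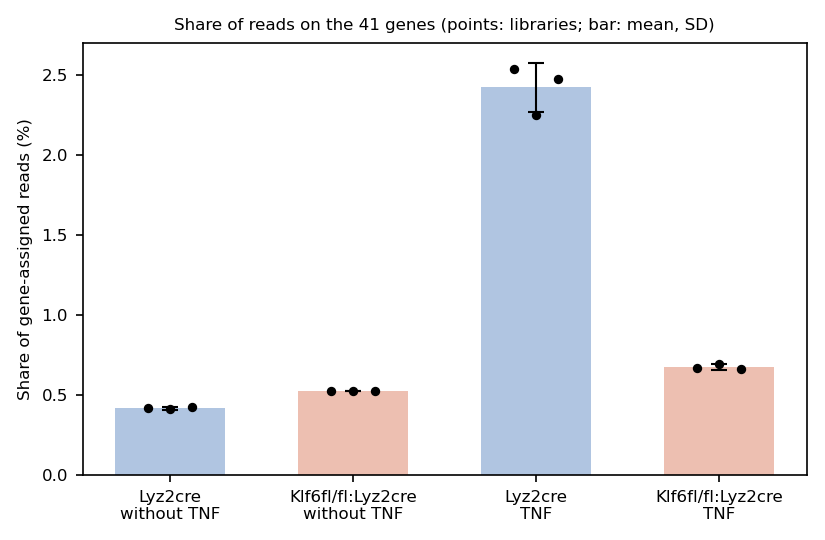
Share of gene-assigned reads (%, y axis) that fell on the 41 genes in each group, with points for single libraries and bars for the mean with its SD. Lyz2cre libraries with TNF sit at 2.25 to 2.54%, above the 3 other groups, which all stay under 0.70%.

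**Figure D2:**
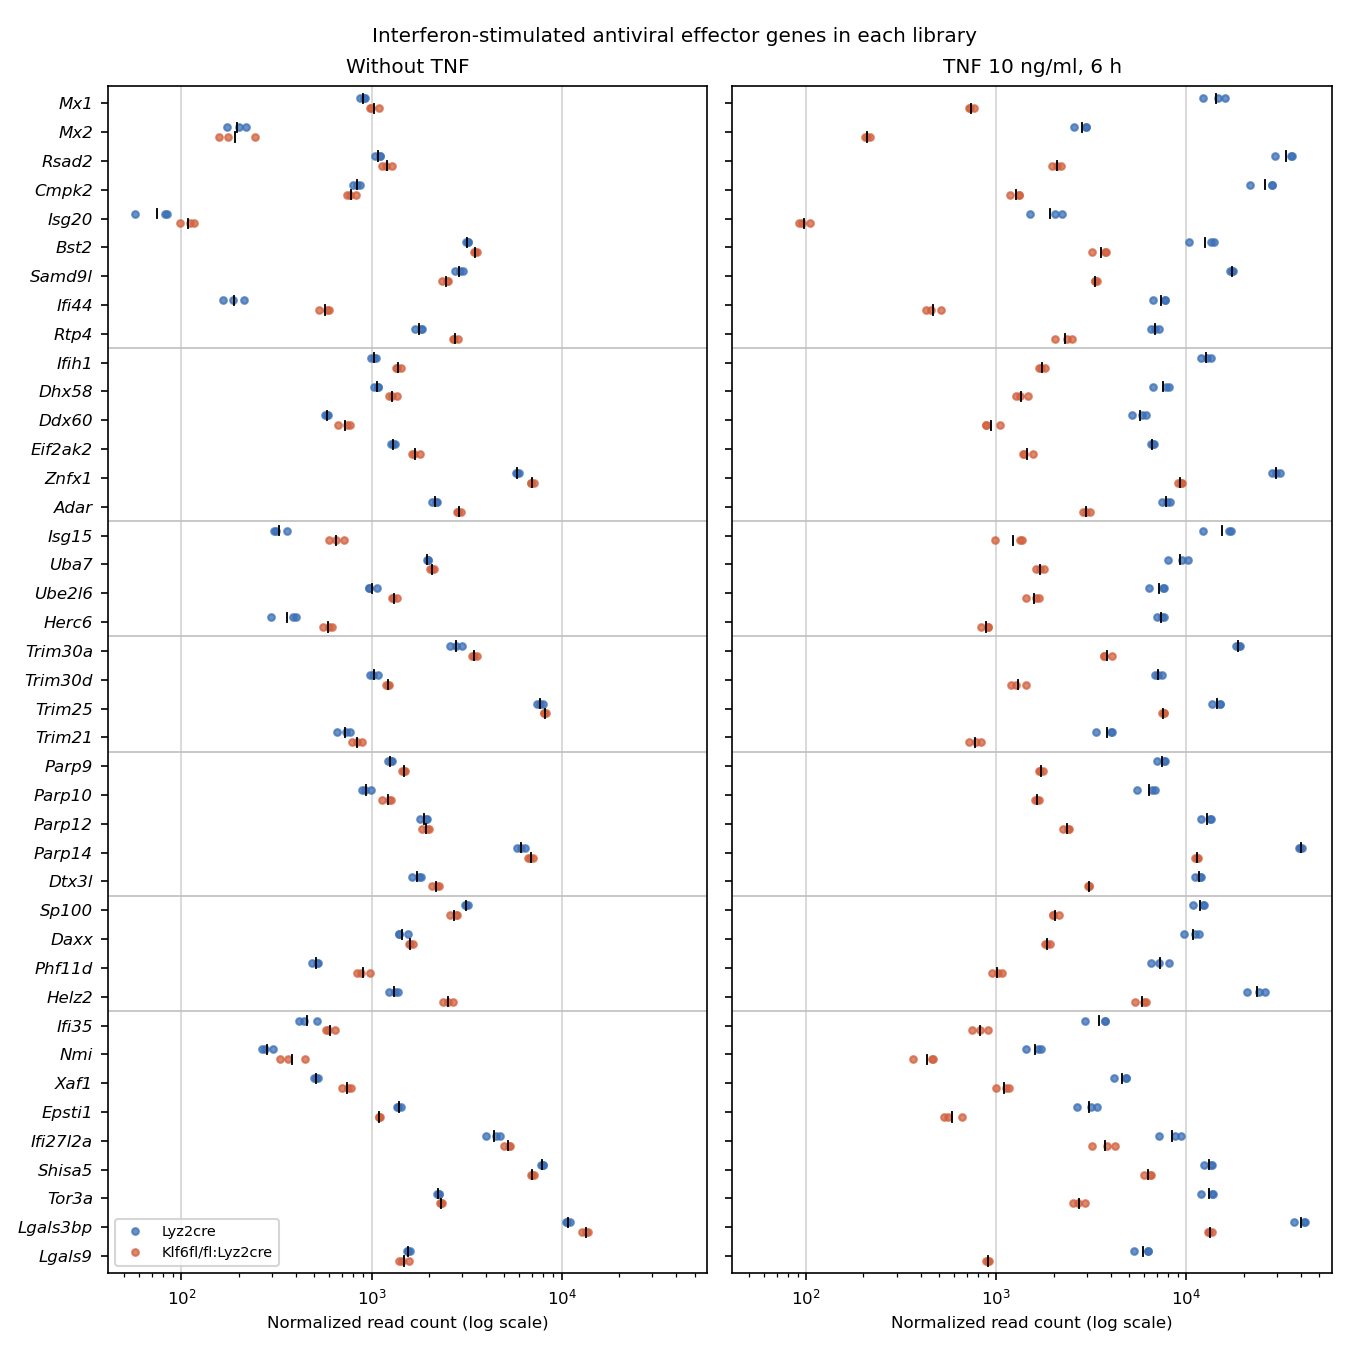
Normalized read count (log scale, x axis) of each of the 41 genes in each library, without TNF (left) and with TNF (right); points are libraries, black ticks are group means, and grey lines part the groups of genes by role. With TNF the Klf6-deleted points lie left of the Lyz2cre points for all 41 genes, while without TNF they lie slightly to the right for most.

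The direct antiviral effectors held the largest differences with TNF: their 9 members were all lower, at a median log2 change of -3.99. Cmpk2, which encodes a mitochondrial nucleotide kinase, had 28113, 21579 and 28262 normalized counts in Lyz2cre and 1183, 1321 and 1322 in Klf6-deleted libraries with TNF. That is 20.2-fold lower (log2 change -4.34, SE 0.0806, adjusted p = 2.4e-16). Isg20, an exonuclease that degrades single-stranded RNA, had 2216, 1511 and 2023 against 105, 91.8 and 95.3, 19.3-fold lower (log2 change -4.27, SE 0.118, adjusted p = 2.6e-14), and the lowest Lyz2cre library was still many times above the highest Klf6-deleted one. The dynamin-like GTPases Mx1 and Mx2 block incoming viral nucleoprotein, and Rsad2, or viperin, makes a nucleotide that ends viral RNA chains. Mx1 fell from 14248 ± 1888 to 738 ± 23.0 (mean ± SD, n = 3), Rsad2 from 33435 ± 3625 to 2073 ± 118 and Mx2 from 2837 ± 236 to 209.6 ± 6.02, with the Lyz2cre mean first. Ifi44 was at 7355 ± 614 against 464 ± 45.0, 15.8-fold lower. The weakest changes of the group were those of Samd9l, 17337 ± 332 against 3321 ± 54.1, of Bst2, the tetherin that holds budding virions at the membrane, 12543 ± 1945 against 3551 ± 323, and of Rtp4, a receptor chaperone with antiviral activity, 6844 ± 327 against 2294 ± 238.

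Without TNF, 6 of these 9 effectors were higher and 1 was lower. Ifi44 stood out, at 166, 186 and 214 normalized counts in Lyz2cre and 596, 531 and 582 in Klf6-deleted libraries, 3.02-fold higher (log2 change 1.59, SE 0.0980, adjusted p = 1.2e-10). Rtp4 followed, at 1698, 1821 and 1844 against 2707, 2864 and 2691, 1.54-fold higher (log2 change 0.62, SE 0.0451, adjusted p = 1.1e-09), and in both genes the groups did not overlap. Also higher were Isg20 (74.2 ± 15.0 against 108 ± 9.29, adjusted p = 0.0123), Mx1 (902 ± 28.5 against 1025 ± 66.1, adjusted p = 0.0118), Rsad2 (1085 ± 38.7 against 1204 ± 71.6, adjusted p = 0.0277) and Bst2 (3198 ± 44.1 against 3515 ± 57.9, adjusted p = 0.00401), all n = 3. The calls of Isg20, Mx1 and Rsad2 were lost without Klf6-deleted replicate 2, and those of Isg20 and Rsad2 also without Lyz2cre replicate 1. Cmpk2, at 840.4, 798 and 865 against 747, 829 and 775, and Mx2, at 218, 199.8 and 174 against 175, 244 and 158, did not pass the test and their groups overlapped. Cmpk2 and Rsad2, adjacent genes on chromosome 12 that lie 12.8 kb apart in GRCm38, were 20.2-fold and 16.1-fold lower with TNF, while their log2 changes without it were -0.09 and 0.15.

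RNA sensors and RNA-binding effectors were all 6 lower with TNF and all 6 higher without it. Ifih1 encodes MDA5, the sensor of long double-stranded RNA. It had 12889, 11864 and 13426 normalized counts in Lyz2cre and 1725, 1798 and 1673 in Klf6-deleted libraries with TNF, 7.34-fold lower (log2 change -2.88, SE 0.0502, adjusted p = 1.2e-16). Without TNF the order was the reverse, 1054, 988 and 1032 against 1345, 1436 and 1366 (log2 change 0.43, SE 0.0503, adjusted p = 6.9e-07). Ddx60, a helicase gene of antiviral defence, was at 6090.3, 5155 and 5848 against 882, 1046 and 885 with TNF, 6.08-fold lower (log2 change -2.60, SE 0.0712, adjusted p = 2.4e-14), and at 583 ± 9.06 against 726 ± 54.0 without. Adar, which edits adenosine in double-stranded RNA and so keeps self RNA from being sensed, showed the smallest difference of the group with TNF, 7847 ± 379 against 2963 ± 130.1, 2.65-fold lower. Its levels without TNF were 2215, 2073 and 2176 against 2952, 2832 and 2848 (log2 change 0.42, SE 0.0414, adjusted p = 8.2e-08). Dhx58, whose product LGP2 assists MDA5, was at 7524 ± 761 against 1354 ± 101 with TNF and 1063 ± 32.4 against 1289 ± 64.5 without. For Eif2ak2, the kinase PKR that halts translation, the pairs were 6622 ± 143 against 1449 ± 95.5 and 1301 ± 34.6 against 1699.9 ± 82.3, and for the helicase gene Znfx1 29520.5 ± 1418 against 9294 ± 265 and 5849 ± 135 against 6971 ± 159.

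The ISG15 system comprised the modifier Isg15, its activating enzyme Uba7, its conjugating enzyme Ube2l6 and Herc6, the main ligase in mice. With TNF, Isg15 had 17118, 12172 and 16677 normalized counts in Lyz2cre and 1361, 1338 and 988 in Klf6-deleted libraries, 12.4-fold lower (log2 change -3.64, SE 0.118, adjusted p = 1.8e-13). Herc6 was at 7599, 7016 and 7418 against 904, 835 and 905, 8.33-fold lower (log2 change -3.06, SE 0.0511, adjusted p = 9.2e-17). Both enzymes that feed the ligase were lower by a smaller factor, Uba7 5.40-fold (9216 ± 1113 against 1698 ± 87.8) and Ube2l6 4.54-fold (7152 ± 673 against 1574 ± 124). Without TNF, Isg15 was 1.99-fold higher in Klf6-deleted libraries, at 314, 309 and 359 against 649, 594 and 717 (log2 change 0.99, SE 0.0846, adjusted p = 1.0e-08). Herc6 was 1.65-fold higher, at 403, 295 and 385 against 558, 620.1 and 596 (log2 change 0.72, SE 0.0980, adjusted p = 4.6e-06). Ube2l6 rose from 1007 ± 57.2 to 1312 ± 42.8, whereas Uba7, at 1969.9 ± 17.3 against 2079 ± 46.8, did not pass the test (adjusted p = 0.121).

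The 4 TRIM ubiquitin ligases were lower with TNF and higher without it, and they differed among themselves. Trim30d had 7398, 6822 and 7098 against 1197, 1438 and 1262 with TNF (log2 change -2.45, SE 0.0608, adjusted p = 6.9e-15) and Trim30a, which restrains Toll-like receptor signalling, 18855, 18197 and 19117 against 3699.5, 4056 and 3679 (log2 change -2.30, SE 0.0452, adjusted p = 4.2e-16). These neighbours, 4.82 kb apart on chromosome 7, were 5.48-fold and 4.92-fold lower. Trim21, a cytosolic antibody receptor, was at 3799.8 ± 403 against 776 ± 58.0, 4.88-fold lower. Trim25, the ligase that aids the RNA sensor RIG-I, changed least of all 41 members with TNF, 15014, 13668 and 14916 against 7626, 7590.4 and 7427, 1.92-fold lower (log2 change -0.94, SE 0.0434, adjusted p = 1.6e-11). Without TNF, Trim30a was at 2796, 2587 and 2992 against 3464, 3392 and 3569 (log2 change 0.32, SE 0.0476, adjusted p = 1.5e-05) and Trim30d at 978, 1018 and 1077 against 1193, 1235 and 1217 (log2 change 0.25, SE 0.0520, adjusted p = 5.2e-04). The rises of Trim21 (724 ± 58.1 to 841 ± 49.6, adjusted p = 0.0105) and Trim25 (7668 ± 265 to 8139.9 ± 114, adjusted p = 0.0446) were lost when single libraries were left out, Trim25 without any 1 of Lyz2cre replicates 2 and 3 and Klf6-deleted replicates 1 and 2, Trim21 without Lyz2cre replicate 2 or Klf6-deleted replicate 2.

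Among the genes of ADP-ribosylation, Parp9 and Dtx3l encode partners in one complex and lie head to head on chromosome 16, with Parp14 close by. Parp12, a zinc-finger member of the family, showed the largest difference of the group with TNF, 13383, 11899 and 13249.9 against 2252, 2413 and 2382, 5.46-fold lower (log2 change -2.45, SE 0.0502, adjusted p = 6.3e-16). Parp9 was at 7629, 7007 and 7688 against 1758, 1686 and 1706, 4.33-fold lower (log2 change -2.11, SE 0.0476, adjusted p = 2.0e-15), and Dtx3l at 11586 ± 431 against 3065 ± 20.6, 3.78-fold lower. Parp10 (6321 ± 731 against 1633 ± 41.3) and Parp14 (39810.3 ± 741 against 11312 ± 229) were 3.85-fold and 3.52-fold lower. All 5 were thus lower. Without TNF, Parp10 was at 996, 919 and 891 against 1139, 1264 and 1241 (log2 change 0.38, SE 0.0580, adjusted p = 2.0e-05) and Dtx3l at 1635, 1769 and 1826 against 2217, 2276 and 2089 (log2 change 0.33, SE 0.0495, adjusted p = 1.4e-05). Parp9 (1255 ± 35.0 to 1476 ± 21.8) and Parp14 (6119 ± 279.9 to 6863 ± 209) were also higher, while Parp12, at 1803, 1931 and 1958 against 1965, 1854 and 2004, did not pass the test (adjusted p = 0.577) and its groups overlapped.

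All 4 nuclear and chromatin proteins were lower with TNF. Phf11d, of a small family with a zinc-binding PHD finger, had 8098, 6534 and 7159 against 949.9, 1026 and 1064, 7.14-fold lower (log2 change -2.84, SE 0.0676, adjusted p = 4.0e-15). Daxx, a histone chaperone of nuclear bodies, had 11621, 9743 and 11094 against 1804, 1921 and 1841, 5.82-fold lower (log2 change -2.54, SE 0.0572, adjusted p = 2.0e-15). Sp100, another nuclear body protein, was 5.79-fold lower (11782 ± 866 against 2030.0 ± 84.5) and Helz2, a helicase co-activator, 4.04-fold lower (23609 ± 2520.5 against 5826 ± 397). Without TNF the group split. Helz2 was 1.93-fold higher, at 1371, 1229 and 1328 against 2683, 2375 and 2523 (log2 change 0.95, SE 0.0528, adjusted p = 2.9e-11), and Phf11d 1.76-fold higher, at 519, 486 and 524 against 879, 979 and 844 (log2 change 0.82, SE 0.0675, adjusted p = 6.7e-09). Daxx rose slightly (1449 ± 86.4 to 1601 ± 43.1, adjusted p = 0.0202), a call lost without Lyz2cre replicate 1 or 2 or Klf6-deleted replicate 1. Sp100 was lower, at 3123, 3211 and 3102 against 2582, 2768 and 2829 (log2 change -0.21, SE 0.0421, adjusted p = 3.7e-04).

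The other 9 members were also all lower with TNF. Lgals9, encoding a galectin, had 6245, 5281 and 6279 against 918, 886 and 901, 6.56-fold lower (log2 change -2.71, SE 0.0616, adjusted p = 2.2e-15), and Epsti1, an interferon-induced gene of macrophages, 3376, 2653 and 3148 against 656, 533 and 557, 5.24-fold lower (log2 change -2.39, SE 0.0867, adjusted p = 7.8e-13). The torsin ATPase gene Tor3a was at 13120.4 ± 1001 against 2712 ± 192, the pro-apoptotic Xaf1 at 4598 ± 372 against 1093 ± 92.7, and the binding partners Ifi35 and Nmi at 3458 ± 449.9 against 822 ± 78.9 and 1603 ± 149 against 430.1 ± 57.8. Smaller differences were those of the secreted galectin-binding glycoprotein Lgals3bp (3.00-fold), of Ifi27l2a (2.25-fold) and of Shisa5, a membrane protein of the endoplasmic reticulum (2.09-fold). Without TNF, Xaf1 was at 513, 499 and 522 against 748, 776 and 702 (log2 change 0.54, SE 0.0640, adjusted p = 9.5e-07) and Nmi at 276, 305 and 267 against 332, 362 and 447 (log2 change 0.42, SE 0.105, adjusted p = 0.00232), both higher in every Klf6-deleted library. Ifi35, Lgals3bp and Ifi27l2a were higher too, with log2 changes of 0.40, 0.31 and 0.24. Tor3a (2249.6 ± 31.9 against 2309 ± 26.2, adjusted p = 0.442) and Lgals9 (1561 ± 24.0 against 1476 ± 87.8, adjusted p = 0.173) did not pass the test.

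A total of 4 members were lower in both conditions. They were Epsti1, at 1379, 1424 and 1359.6 against 1090.3, 1094 and 1113 without TNF (log2 change -0.34, SE 0.0473, adjusted p = 7.1e-06), Samd9l, at 2764, 2908 and 3034 against 2538, 2506 and 2360.1 (log2 change -0.23, SE 0.0446, adjusted p = 2.1e-04), Sp100 and Shisa5, at 7934, 7783 and 7974 against 6950.3, 6874 and 7167 (log2 change -0.17, SE 0.0337, adjusted p = 2.3e-04). With values scaled to total reads, Epsti1 was still called lower without TNF, and Samd9l, Sp100 and Shisa5 no longer passed the test. Across all 41 members the log2 changes without and with TNF had a Pearson correlation of -0.193 and a Spearman correlation of 0.00261, given as a description over genes measured in the same libraries. The comparisons share no library.

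**Figure D3:**
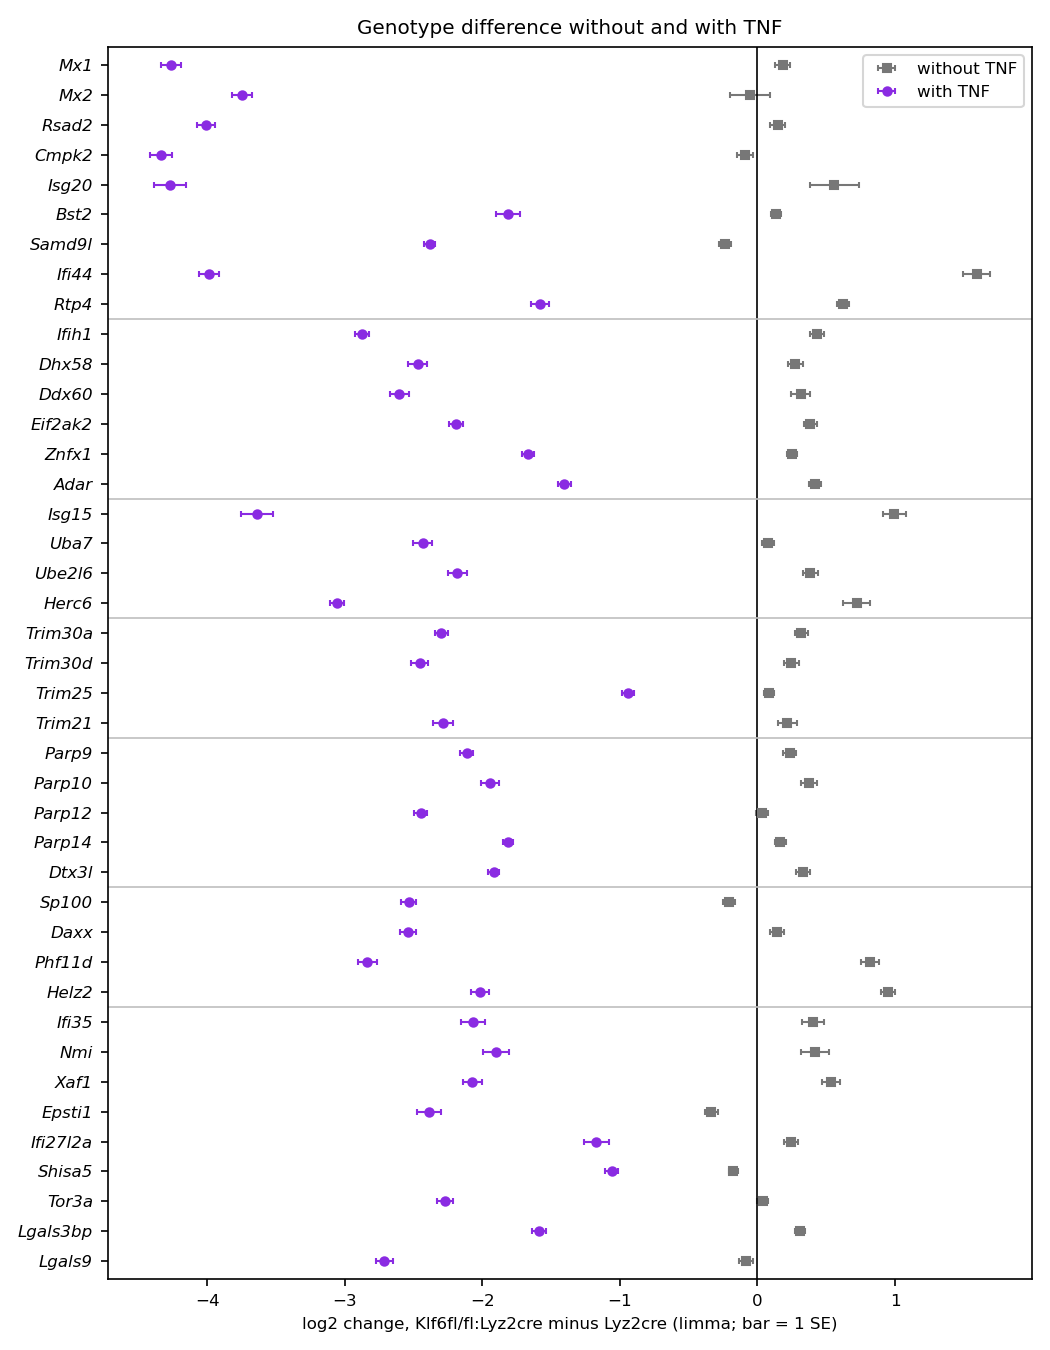
Log2 change of Klf6-deleted against Lyz2cre cells (x axis; bars, 1 SE from limma) for each of the 41 genes without TNF (grey squares) and with TNF (violet circles). Every circle lies left of 0, from -4.34 for Cmpk2 to -0.94 for Trim25, while squares run from -0.34 for Epsti1 to 1.59 for Ifi44.

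The difference between the genotype effects was tested directly, as the log2 change with TNF minus that without. It was negative in all 41 members (limma over the 4 groups, adjusted p below 0.05, where 24.9% of the 13062 genes tested were called in this direction), and none was positive (0 at an unadjusted p below 0.05, and 0 by edgeR and by DESeq2). The median was -2.51, against 0.01 over all genes. In Ifi44, which was higher in Klf6-deleted cells without TNF and lower with it, the difference was -5.58 (SE 0.126, adjusted p = 2.4e-17), and in Isg15, of the same pattern, -4.63 (SE 0.168, adjusted p = 1.6e-14). Among the other groups of genes the most negative values were -3.31 (SE 0.0695, adjusted p = 1.8e-17) for Ifih1, -3.65 (SE 0.101, adjusted p = 2.8e-16) for Phf11d, -2.70 (SE 0.0828, adjusted p = 1.3e-15) for Trim30d, -2.63 (SE 0.0835, adjusted p = 2.1e-15) for Lgals9 and -2.48 (SE 0.0708, adjusted p = 4.4e-16) for Parp12. The value nearest to 0 was that of Shisa5, -0.89 (SE 0.0591, adjusted p = 1.8e-10).

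Levels with and without TNF stand in separately normalized tables, so they were set side by side without a test. In Lyz2cre cells the ratio of the level with TNF to that without was above 1 for all 41 genes, with a median of 6.71, and above 10 for 11. Isg15 had the highest ratio, 46.8, followed by Ifi44 at 38.9, Cmpk2 at 31.1, Rsad2 at 30.8 and Isg20 at 25.8, and Shisa5 had the lowest, 1.66. In Klf6-deleted cells the median ratio was 1.13, with 27 genes above 1 and 14 below. On this scale Helz2 alone was above 2, at 2.31, while Isg15 stood at 1.88 and Rsad2 at 1.72, and Ifi44 was at 0.814, Mx1 at 0.721, Lgals9 at 0.611 and Epsti1 at 0.530. The level of Klf6-deleted cells with TNF was above that of Lyz2cre cells without TNF for 33 genes and below it for 8, with a median ratio of 1.31. On CPM, counts scaled to the total reads of each library, the Klf6-deleted median was 1.30, with 32 genes above 1 and 2 above 2, Helz2 at 2.66 and Isg15 at 2.17, and the Lyz2cre median 6.75. Markers of other cells also differed between the untreated and the TNF libraries. The summed normalized counts of 6 B cell markers, mostly Ighm, were 3564 to 3816 without and 20.6 to 60.8 with TNF in Lyz2cre libraries, and 2136 to 2505 and 245 to 295 in Klf6-deleted libraries. Those of 9 neutrophil markers, 7 of them measured with TNF, were 10552 to 11855 and 255 to 283 in Lyz2cre libraries, and 7957 to 8408 and 152 to 191 in Klf6-deleted libraries. Those of 18 stromal markers were 4393 to 5247 and 995 to 1482 in Lyz2cre libraries, and 74487 to 79569.5 and 4592 to 5345 in Klf6-deleted libraries. The part of all these cells in the ratios was not tested.

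**Figure D4:**
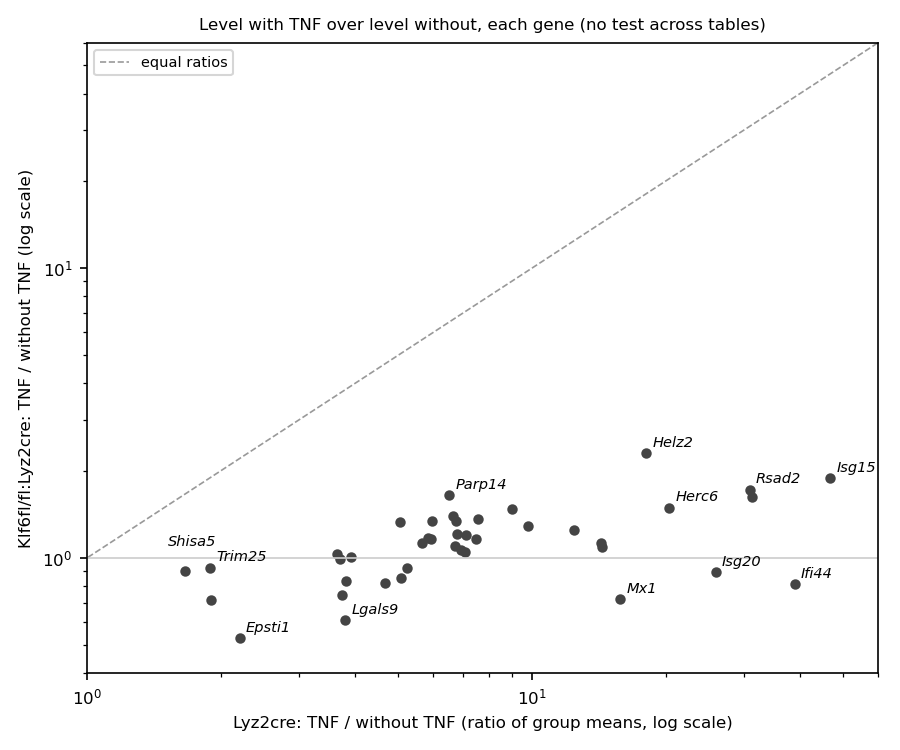
Ratio of the mean level with TNF to the mean level without in Lyz2cre cells (x axis, log scale) and in Klf6-deleted cells (y axis, log scale), 1 point per gene, with a dashed line where both ratios would be equal. All 41 points lie below the dashed line, and the Klf6-deleted ratios stay between 0.530 and 2.31 while those of Lyz2cre cells reach 46.8.

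Per kilobase of annotated exon, which allows levels of different genes to be compared, the same few members stood at the top in most groups. Without TNF, Ifi27l2a, Lgals3bp and Bst2 were the most abundant in both genotypes, with Lyz2cre means of 9520.4, 3790.3 and 3541 normalized counts per kilobase, and Ifi44 was the least abundant in Lyz2cre cells at 30.8. With TNF, Isg15 came first in Lyz2cre cells, at 20268, before Ifi27l2a at 18139. In Klf6-deleted cells with TNF the first 4 were still Ifi27l2a, Lgals3bp, Bst2 and Shisa5, with Isg15 next at 1626. Exon lengths came from GENCODE vM21, and the labels do not name the annotation behind the deposited counts.

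Reads of some members can be shared with other genes. Of the stretches of 50 bases within a member's transcripts, the share also found in transcripts of another gene was highest for Herc6 (12.5%), Rtp4 (11.6%), Phf11d (8.09%, mainly Phf11c), Trim30d (7.49%, mainly Trim30a) and Trim30a (5.98%). It was 4.38% for Mx2 and 3.91% for Mx1, which share stretches with each other. Exons of Adar overlap those of Chrnb2 on the other strand over 16.8% of their length, those of Ifi35 overlap the antisense gene Gm11626 over 16.8%, and those of Parp9 and Dtx3l overlap each other over 9.40% and 8.00%. Whether strand was used in counting is not stated, so the levels of these genes are uncertain to that extent.

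One library stood below its group for all members. In Lyz2cre cells with TNF, replicate 2 held the lowest value of all 41 genes, while it was the lowest library for 38.8% of all genes tested, and its median deviation from the group mean was -0.14 on the log2 scale. Replicate 1 was highest for 27 members and replicate 3 for 14, and for 33.0% and 33.3% of all genes tested. In Klf6-deleted cells with TNF, replicate 2 was highest for 26 of 41 members and for 31.7% of all genes tested. The median coefficient of variation of a member was 8.34% in Lyz2cre cells with TNF, 5.67% in Klf6-deleted cells with TNF, and 4.09% and 4.36% in the untreated groups. Without Lyz2cre replicate 2, all 41 members passed the test as lower with TNF.

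Of 12 genes of interferon signalling, from the ligand to feedback inhibitors, 6 of 11 tested were higher and 4 lower in Klf6-deleted cells without TNF. With TNF, 10 of 12 were lower and 1 higher. Among all genes tested, 27.6% were called higher and 29.3% lower without TNF. The same shares with TNF were 30.8% lower and 3103 of 11717 genes higher. The ligand gene Ifnb1 was at 23.9, 25.7 and 28.7 normalized counts in Lyz2cre libraries with TNF and at 0.9, 0.9 and 0 in Klf6-deleted libraries (limma, adjusted p = 1.4e-05), which rests on 74 and 2 reads over 3 libraries. Without TNF it had 0 and 4 reads and was not tested. The receptor chains were lower in both conditions, Ifnar1 at 4366 against 3208 without TNF and 8371 against 6181 with it, and Ifnar2 at 2955 against 2235 and 3266 against 2656 (group means, Lyz2cre first). The kinase gene Tyk2 was lower in both as well (2086 against 1720.5, 5721 against 3210.1), and Jak1 was lower without TNF (6951 against 6494, adjusted p = 0.029) and did not pass the test with it (6298 against 5879.9, adjusted p = 0.0921).

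Most factors that carry the signal changed in the same directions as most members. Stat2 was at 2228, 2111 and 2249.9 against 4618, 4706 and 4467 without TNF (log2 change 1.07, SE 0.0401, adjusted p = 1.2e-13) and at 17629, 14696 and 17137 against 3009, 3208 and 3139.7 with TNF (log2 change -2.40, SE 0.0578, adjusted p = 4.7e-15). It was higher in every Klf6-deleted library without TNF and lower in every one with it, like most members. Irf7, the factor that amplifies interferon production, went from 1.17 to -2.29 in log2 change, Irf1 from 0.97 to -1.64 and Irf9 from 0.25 to -0.58. The feedback inhibitors Socs1 and Usp18 had log2 changes of 1.60 and 0.36 without TNF and -2.46 and -3.38 with it. Irf3 did not pass the test without TNF (log2 change -0.07, adjusted p = 0.289) and was higher with it (0.26, adjusted p = 0.00384).

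**Figure D5:**
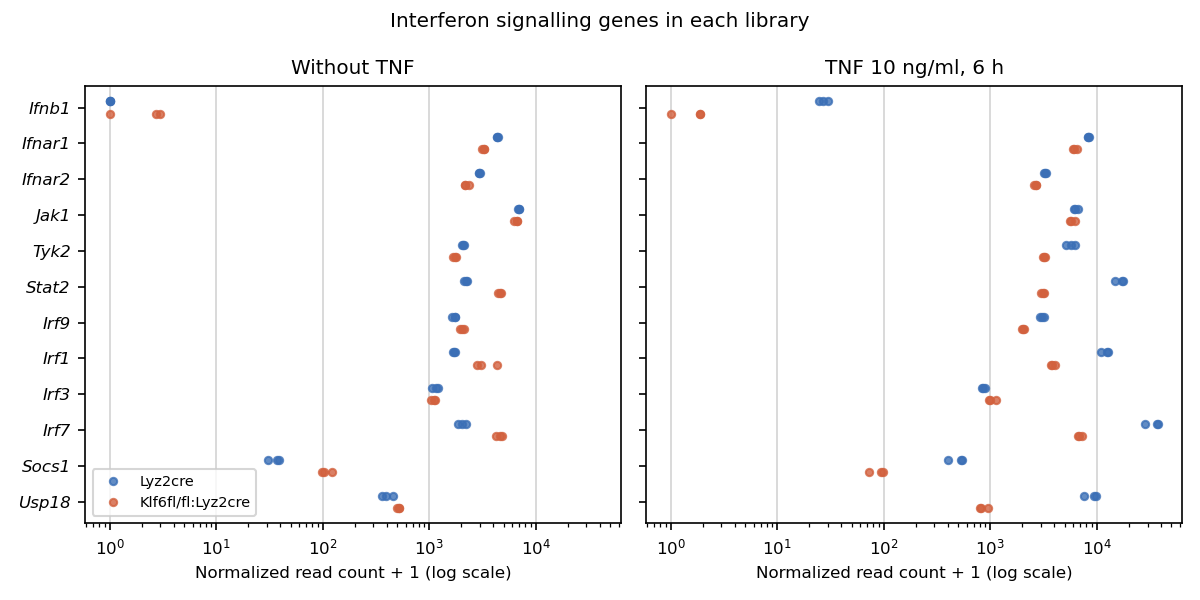
Normalized read count plus 1 (log scale, x axis) of 12 interferon signalling genes in each library, without TNF (left) and with TNF (right). Stat2, Irf1 and Irf7 are higher in Klf6-deleted libraries on the left and lower on the right, and Ifnb1 is above 20 only in Lyz2cre libraries with TNF.

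Markers of other cell types differed between the genotypes in the same libraries. The stromal markers, of which Lum was under 10 normalized counts in each group, are given above for cells without TNF. With TNF, where the members were lower, 11 of 14 tested stromal markers were higher, at 0.00476 to 0.00714% against 0.0279 to 0.0325%. Among all 11717 genes tested with TNF, 3103 were called higher. Of 7 monocyte markers, 6 were higher and 1 lower without TNF, and 1 was higher and 3 lower with TNF. Their summed normalized counts were 12019 to 12738 against 8968 to 11568 without TNF and 8136 to 10854 against 3661 to 3821 with it. F13a1, the 1 lower without TNF, made up most of the Lyz2cre sum there (group means 9923 against 2618, Lyz2cre first). With TNF most of it was Ms4a4c (7085 against 1291), whose log2 changes, 2.33 without TNF and -2.45 with it, ran like those of most members. Ly6c2, the 1 higher with TNF, was at 82.2 against 435. Of 8 endothelial markers, 5 of 5 tested were higher without TNF, and 1 of 3 tested was higher and 2 lower with it. Their summed normalized counts were 835 to 927 against 1748 to 1969.7 without TNF and 2051 to 2492 against 1176 to 1261 with it. Kdr made up most of the Lyz2cre sum with TNF (group means 2010 against 540, Lyz2cre first), and Vwf went the other way (298 against 648). Plasmacytoid dendritic cells are a strong source of interferon, and their defining marker Siglech was under 10 normalized counts in both untreated groups. Of their markers Tcf4, Cox6a2, Runx2 and Bcl11a, tested without TNF, 2 were higher (Runx2 and Bcl11a) and 2 lower (limma). With TNF, where Tcf4, Cox6a2, Runx2 and Ccr9 were tested, Tcf4 was lower and the other 3 did not pass the test. Ccr9 was at 25.9, 22.6 and 16.1 against 18.7, 7.3 and 6.8 with TNF (adjusted p = 0.0539). Markers of T and NK cells summed to at most 43.8 and those of conventional dendritic cells to at most 77.5 normalized counts in any library. The part of these cells in the members' differences was not tested.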

How the data were processed

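Total RNA was depleted of ribosomal RNA and made into stranded libraries, per the labels' protocols. Per the submitters' processing notes, Cufflinks, GRCm39 and mm10 are named, in roles that are not stated. The aligner and counter were not given in the sources used here. The authors deposited 1 table of normalized signal for the untreated and 1 for the TNF libraries. Dividing each library's deposited signal by its smallest step gave whole reads for 100% of values (tolerance 0.001 reads), so the values are read counts over a size factor. The recovered reads served for depth, the CPM filter, shares of reads and the count tests among the alternatives. In 2 libraries the step is near 1, at 0.997 in Klf6-deleted replicate 2 without TNF and 0.995 in Lyz2cre replicate 1 with TNF. The tables were normalized separately.

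Within each table, limma 3.58.1 (trend = TRUE) compared log2(value + 1) for genes that reached 1 CPM in 3 or more libraries, a scale that understates changes of low genes. P-values were adjusted by Benjamini-Hochberg over all genes tested. The difference of the genotype effects used genes of both tables in 1 limma model. Alternatives were edgeR 4.0.16 (quasi-likelihood, TMM), DESeq2 1.42.0, other scalings, pseudocounts, filters and thresholds, each library left out, and the replicate number as a block. R was 4.3.3, Python 3.11.15, pandas 2.3.3 and matplotlib 3.10.9. The limma model was tested on simulated counts.

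Symbols came from a table that named 22867 of 22896 untreated and 21411 of 21437 TNF identifiers, positions from GENCODE vM21 (GRCm38), promoters from RefSeq (GRCm38.p6). No promoter was used for Dhx58, Ifi27l2a, Mx1, Mx2, Parp10, Parp14, Parp9, Rtp4 and Tor3a. 1 gene of the interferon signalling list is not reported here. The members, lists, motifs and rules were chosen with earlier results of these data known. In each comparison and role group the 2 members with the largest called change are given library by library, and for the difference of effects the 1 with the largest value. The 4 upstream stretches, the 4 members lower in both conditions and a few single libraries were picked after their values were seen.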

Additional observations from a re-analysis of the deposited data

Results flagged for a closer look

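The genotype effect differed between cells without and with TNF in all 41 members by the test of the difference itself. The 1 member of each group of genes with the most negative difference of log2 changes was Ifi44 (-5.58), Isg15 (-4.63), Phf11d (-3.65), Ifih1 (-3.31), Trim30d (-2.70), Lgals9 (-2.63) and Parp12 (-2.48). In Ifi44, Isg15, Phf11d, Ifih1 and Trim30d the Klf6-deleted libraries were above all Lyz2cre libraries without TNF and below all of them with TNF, whereas in Lgals9 and Parp12 the groups overlapped without TNF.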

How the results depend on the processing

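With TNF, all 41 members were lower under each alternative tried, and the difference of the genotype effects was negative for all 41 under each. Leaving out single libraries gave 26 to 31 members higher and 4 to 5 lower without TNF, against 31 and 4 with all libraries, and 41 lower in the other comparisons. Scaled to total reads, 1 member was lower without TNF, where 2408 of all 12715 genes tested were called lower. That scaling changed the sign of Lgals9 (0.0512), Cmpk2 (0.0421) and Mx2 (0.0766), none of which was called. Without single libraries the log2 change of Mx2 ran from -0.2402 to 0.0746, turning positive without Lyz2cre replicate 1 (0.0189) or Klf6-deleted replicate 3 (0.0746), and that of Parp12 from -0.00318, without Lyz2cre replicate 1, to 0.0657. Replicate numbers recur between the groups. As the replicate block they gave 31 higher and 4 lower without TNF and 41 lower with TNF and for the difference of effects. Deviations of same-numbered libraries correlated at 0.152, -0.0378 and 0.158 without TNF and at -0.0209, -0.0123 and -0.0295 with TNF. Those of differently numbered libraries ran from -0.230 to 0.114 without TNF and from -0.00153 to 0.0224 with it. With 3 libraries per group these values cannot settle whether samples were paired, and the main tests did not pair them. The median ratio with TNF over without moved in Klf6-deleted cells from 1.13 to 1.30 on CPM, and ranged from 1.09 to 1.15 (Lyz2cre 6.60 to 6.81) when single libraries were left out. Within the 150 bases nearest the start, the NF-kB site was in 0% of members (0 of 32) and 4.93% of all genes, and the CACCC box in 50% (16 of 32) and 39.1%. Among the genes called in either direction, 68.0% were higher when scaled to total reads, in place of 48.5%, without TNF. These shares of the called genes were 80.4% in place of 46.2% with TNF and 69.2% in place of 49.2% for the difference of effects. The cause of these shifts was not tested. The 3 libraries per group limit precision, most for Isg20 and Mx2, whose coefficients of variation without TNF reached 20.2% and 23.9%.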
